A study of Zea mays with 18 samples.

Results

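The genes described here encode enzymes of the route from glucose 6-phosphate to raffinose in the leaf of the maize hybrid An'nong 591. They were taken by gene ID from the deposited table: 5 of its 39471 genes, namely the myo-inositol phosphate synthase genes GRMZM2G155242 and GRMZM2G004528, the galactinol synthase genes GRMZM5G872256 and GRMZM2G165919, and the raffinose synthase gene GRMZM2G150906. RefSeq lists GRMZM2G155242 as INO1 or lpa1, GRMZM2G004528 as mips2 and GRMZM5G872256 as gols2 or gols3, while GRMZM2G165919 and GRMZM2G150906 carry no such symbol there and are called by the grouping under which they were chosen. The third leaf of seedlings of the F1 hybrid of CB25 and CM1 was sequenced in 3 biological replicates per group. CF1 stands for seedlings kept at 28 °C by day and 23 °C by night, and F1 for seedlings kept at 42 °C by day and 35 °C by night for 2 d. All were raised in a greenhouse with 16 h of light, and the heated seedlings were watered daily. The parental libraries were not used here, because the names of their columns match no sample label.

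Myo-inositol phosphate synthase (MIPS) converts glucose 6-phosphate into inositol phosphate, the only route by which plants make new inositol. Inositol goes into membrane phosphoinositides and phytate, and galactinol synthase (GolS) joins it to galactose to form galactinol. Raffinose synthase (RAFS) passes that galactose on to sucrose, which gives raffinose and frees the inositol again. Raffinose and galactinol are known as compatible solutes and hydroxyl radical scavengers of stressed leaves and drying seeds, and in Arabidopsis the heat-induced GolS1 gene is a target of heat shock factors.

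Counts on genes totalled between 12266758 and 14643512 per library. Levels are given as FPKM (counts per kilobase of exon and per 1000000 counts of the library), and fold changes as F1 over CF1 from edgeR's quasi-likelihood test with TMM factors, which correct for the different composition of the libraries (0.734 to 0.770 in CF1, 1.30 to 1.33 in F1). Genes were called where the change was 2-fold or more and the p adjusted by Benjamini-Hochberg over all 20621 expressed genes was 0.05 or less. The median log2 fold change of all expressed genes was 0.05 with TMM factors and 0.85 with library totals, so that a change under the second scaling has to be read against 0.85. The 4 leaf markers (C4 phosphoenolpyruvate carboxylase, pyruvate phosphate dikinase, NADP-malic enzyme and a Rubisco small subunit) were present in every library, with a summed FPKM of 21860 to 23110 in CF1 and 6332 to 7699 in F1. The leaf markers were thus lower in F1, and their part in the results was not tested. Of 5 seed markers (a zein, globulin-1 and 3 oleosin genes), 3 had no count in any library and the summed FPKM of all 5 was at most 0.21, although seeds are the organ in which these sugars are best known.

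All 5 genes were up-regulated in F1. The increase was largest for GRMZM2G155242 of the MIPS pair (25.9-fold), followed by GRMZM2G004528 (4.60-fold) and the raffinose synthase gene (3.95-fold), and smallest for the galactinol synthase genes (2.15-fold for GRMZM5G872256 and 2.04-fold for GRMZM2G165919). Of all expressed genes 24.1% were called up-regulated, so that 5 of 5 is above the background, but the genes were chosen with earlier results of these data known. When library totals were used instead, 45% of the expressed genes and again all 5 of these were called up-regulated. Over all expressed genes that scaling moved the split from 4963 up- and 4102 down-regulated to 9286 and 1899. No F1 library overlapped with a CF1 library for any of the 5 genes, F1 being the higher group both in the deposited FPKM (64.3% of the expressed genes) and in TMM-scaled FPKM (39.1%). Leaf RNA was sequenced in bulk, so that more cells with a transcript and more transcript per cell cannot be told apart.

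**Figure D1:**
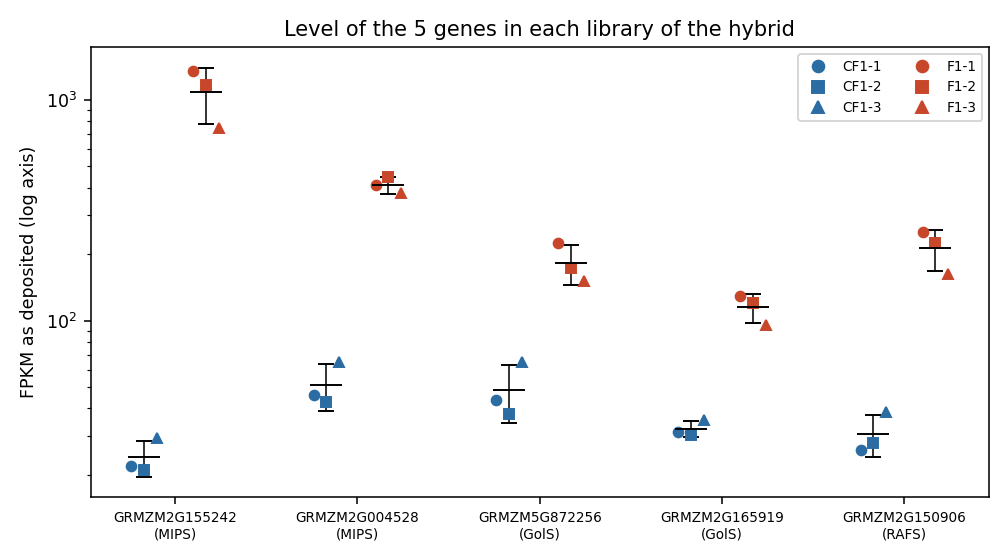
Deposited FPKM (log axis) of the 5 genes in each library of the hybrid, CF1 in blue and F1 in red, with the mean and SD of 3 libraries. For every gene the 3 F1 libraries lie above the 3 CF1 libraries, and GRMZM2G155242 goes from the lowest mean in CF1 (24.1) to the highest in F1 (1089).

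Of the MIPS genes, GRMZM2G155242 changed most. Its FPKM was 21.94, 21.05 and 29.23 in the CF1 libraries and 1349, 1172 and 746.0 in the F1 libraries. Even the lowest F1 library was 25.5 times the highest CF1 library in deposited FPKM, and 14.4 times in TMM-scaled FPKM. It rose by 4.69 on the log2 scale (standard error 0.26, adjusted p = 1.90e-07 by edgeR), a larger value than in 98.3% of the expressed genes. Its transcript ranked 3025 by mean FPKM in CF1 and 24 in F1 among all genes of the table. Mutations at maize loci named lpa lower the phytate of the seed, and RefSeq gives the name lpa1 both to this gene and to the phytate transporter gene MRP4, but here both were read in leaves.

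GRMZM2G004528 (mips2) was the more abundant MIPS transcript of the control leaf. Its FPKM was 46.0, 42.58 and 65.16 in CF1, and 410.1, 448.3 and 377.1 in F1. The groups were far apart, with the lowest F1 library 5.79 times the highest CF1 library in deposited FPKM, and 3.27 times in TMM-scaled FPKM. Its rise on the log2 scale was 2.20 (standard error 0.18, adjusted p = 2.99e-06 by edgeR). Its rank by mean FPKM went from 1307 to 102.

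The balance within the MIPS pair turned over. GRMZM2G155242 made up 32.1 ± 1.07% of the summed FPKM of the pair in CF1 and 71.8 ± 5.15% in F1 (SD, n = 3 each). Its FPKM was between 0.449 and 0.494 times that of GRMZM2G004528 in the CF1 libraries, and between 1.98 and 3.29 times in the F1 libraries. Since both are read in the same library, this ratio does not depend on the scaling between libraries. On the log2 scale it went from -1.08 ± 0.07 to 1.36 ± 0.37 (SD, n = 3), a difference of 2.44 (standard error 0.22), or 5.44-fold. The groups did not overlap (p = 0.1 by an exact two-sided permutation test, which cannot go lower with 3 libraries against 3, and 0.133 after adjustment over the 4 ratios compared). The copies are related in sequence, and the treatment of reads that match more than 1 copy is not given in the sources used here, so the split within the pair is uncertain to that extent.

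The galactinol synthase genes had the smallest increases of the 5. GRMZM5G872256 (gols2) had an FPKM of 43.7, 37.69 and 64.71 in CF1 and of 225.0, 173.3 and 151.1 in F1. CF1 replicate 3 stood highest among the controls. The lowest F1 library was 2.33 times that value in deposited FPKM, but 1.32 times in TMM-scaled FPKM. On the log2 scale it rose by 1.10 (standard error 0.22, adjusted p = 1.19e-03 by edgeR), with an interval of 2 standard errors from 0.66 to 1.54 that holds the threshold of 1. It is the member that the study also measured by qRT-PCR, a readout not analysed here. Its primers, which define the stretch measured there, are given 5′ to 3′.
GRMZM5G872256 forward primer: gtacgtgacgttccttgcg
GRMZM5G872256 reverse primer: ctggttctcaggcgggta

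GRMZM2G165919, the other galactinol synthase gene, had an FPKM of 31.4, 30.25 and 35.32 in CF1 and of 129.2, 120.5 and 95.7 in F1. The control libraries were close together. The lowest F1 library was 2.71 times the highest of them in deposited FPKM, but 1.53 times in TMM-scaled FPKM. On the log2 scale the rise was 1.03 (standard error 0.14, adjusted p = 7.48e-05 by edgeR), with an interval of 2 standard errors from 0.76 to 1.30. Both galactinol synthase genes were thus above CF1 in every F1 library but at the edge of the 2-fold threshold. GRMZM5G872256 fell below it without CF1 replicate 2 (0.94) or F1 replicate 1 (0.93), and GRMZM2G165919 without CF1 replicate 1 (0.998), CF1 replicate 2 (0.97) or F1 replicate 1 (0.94). Without CF1 replicate 2, and likewise without F1 replicate 1, 3 of the 5 genes were called up-regulated.

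Within the GolS pair no shift was seen. GRMZM5G872256 held 59.5 ± 4.74% of the summed FPKM of the pair in CF1 and 61.2 ± 2.27% in F1 (SD, n = 3 each). The log2 ratio of the genes differed between the groups by 0.10 (standard error 0.18), less than the spread between replicates, and the groups overlapped (exact two-sided permutation test, p = 0.7, also 0.7 after adjustment over the 4 ratios). The interval of 2 standard errors ran from -0.26 to 0.47, so that a shift within it remains possible, while the MIPS pair had shifted by 2.44. The permutation test itself could not have called a shift of any size in either pair, because its smallest p is 0.1.

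The raffinose synthase gene GRMZM2G150906, which encodes the last enzyme of the route, had an FPKM of 25.97, 27.82 and 38.49 in CF1 and of 251.5, 223.6 and 162.7 in F1. The lowest F1 library was 4.23 times the highest CF1 library in deposited FPKM, and 2.39 times in TMM-scaled FPKM. The fitted rise on the log2 scale was 1.98 (standard error 0.20, adjusted p = 1.29e-05 by edgeR). Its rank by mean FPKM went from 2304 to 279.

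**Figure D2:**
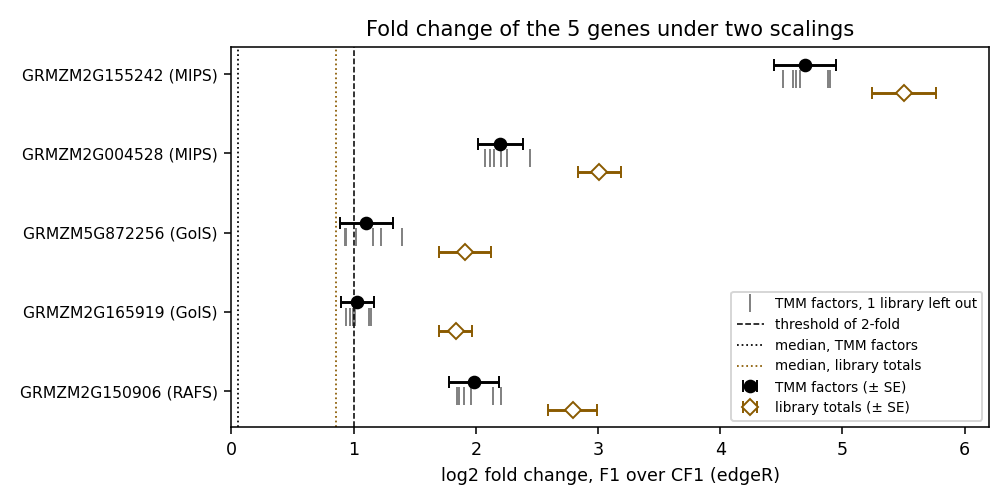
Log2 fold change of F1 over CF1 for each gene, with TMM factors (filled circles, ± SE), with 1 library left out (ticks) and with library totals (open diamonds, ± SE). The dashed line marks the 2-fold threshold and the dotted lines the median of all expressed genes, 0.05 and 0.85. Ticks of both GolS genes fall on either side of the threshold, while those of the other genes stay above it.

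The classes were not raised to the same extent. The ratio of RAFS to the summed GolS genes was 0.346 to 0.410 in the CF1 libraries and 0.659 to 0.761 in the F1 libraries, a log2 difference of 0.90 (standard error 0.09). The ratio of the summed GolS to the summed MIPS genes was 1.06 to 1.11 in CF1 and 0.181 to 0.220 in F1, a log2 difference of -2.43 (standard error 0.08). Neither ratio overlapped between the groups (exact two-sided permutation tests, p = 0.1 each, the smallest possible, 0.133 after adjustment over the 4 ratios). Per exonic length, GolS transcripts thus stood slightly above MIPS transcripts in all control libraries and far below them in all heat libraries. Summed over the 5 genes, MIPS took 40.2 ± 0.303% (SD, n = 3) of the FPKM in CF1 and 74.5 ± 1.26% in F1, GolS 43.3 ± 0.966% and 14.9 ± 1.18%, and RAFS 16.4 ± 1.05% and 10.6 ± 0.0958%. Together the 5 genes took 364.4 to 529.6 of every 1000000 counts in CF1 and 3635 to 5587 in F1, with means 11.2-fold apart. In TMM-scaled FPKM the means of their sum were 248.5 and 1527, or 6.15-fold apart.

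**Figure D3:**
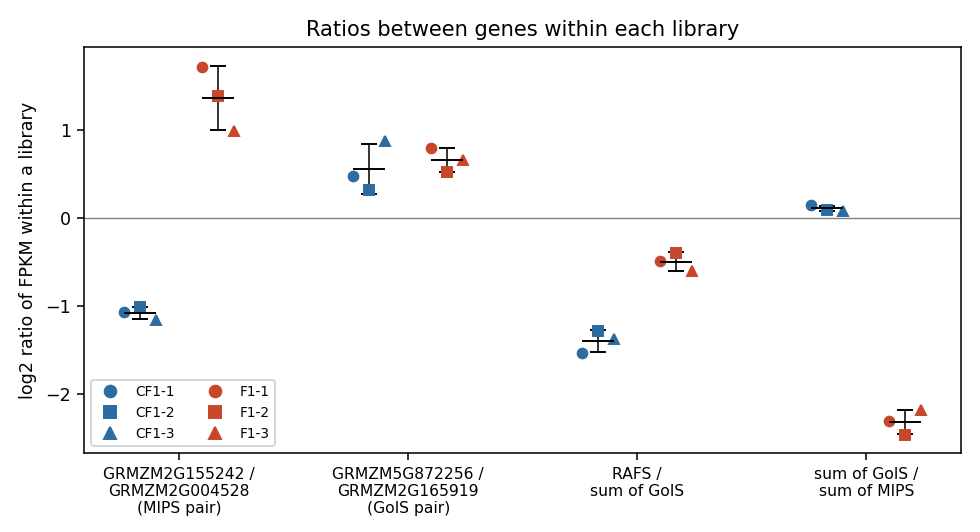
Log2 ratios of FPKM within each library, CF1 in blue and F1 in red, with the mean and SD of 3 libraries. The MIPS pair crosses from below 0 to above 0 (-1.08 to 1.36), the GolS pair overlaps between the groups, the ratio of RAFS to GolS is higher in F1 and that of GolS to MIPS lower (0.11 to -2.32).

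In CF1 the order of the mean FPKM was GRMZM2G004528 (51.2 ± 12.2), GRMZM5G872256 (48.7 ± 14.2), GRMZM2G165919 (32.3 ± 2.66), GRMZM2G150906 (30.8 ± 6.76) and GRMZM2G155242 (24.1 ± 4.49; SD, n = 3 each). Neighbours in this order were within their spread of each other in every case except GRMZM5G872256 and GRMZM2G165919, whose means differed by more than the larger SD. In F1 the order was GRMZM2G155242 (1089 ± 310.0), GRMZM2G004528 (411.9 ± 35.6), GRMZM2G150906 (212.6 ± 45.4), GRMZM5G872256 (183.1 ± 37.9) and GRMZM2G165919 (115.2 ± 17.4; SD, n = 3 each). Here the raffinose synthase gene and GRMZM5G872256 were within their spread, and the other neighbours differed by more than the larger SD. These levels are per exonic length, from 1775 bases (GRMZM5G872256) to 2859 bases (GRMZM2G150906).

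The 5 genes had an extreme library in common within each group. CF1 replicate 3 was the highest control library and F1 replicate 3 the lowest heat library for each of the 5 genes. Of all expressed genes, 47.4% lay below their group mean in CF1 replicate 3 and 49.8% in F1 replicate 3. How many of them were highest in CF1 replicate 3 or lowest in F1 replicate 3 was not counted. The other F1 libraries were not ordered alike: GRMZM2G004528 was highest in F1 replicate 2 and the other genes in F1 replicate 1. On the scale of log2(TMM-scaled FPKM + 1), the genes lay 0.17 to 0.49 above their group mean in CF1 replicate 3 and 0.10 to 0.48 below it in F1 replicate 3, where the median of all expressed genes deviated by 0.0087 and 0.00023. The SD of GRMZM2G155242 among the F1 libraries (0.43) was larger than that of 97.0% of the expressed genes. The SD of GRMZM2G004528 there (0.11) was larger than that of 37.5%. Among the CF1 libraries the widest gene was GRMZM5G872256 (0.43, larger than 91.1%) and the tightest GRMZM2G165919 (0.15, larger than 43.8%). Without F1 replicate 3 the log2 fold change of GRMZM2G155242 was 4.90, and without CF1 replicate 3 it was 4.88.

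**Figure D4:**
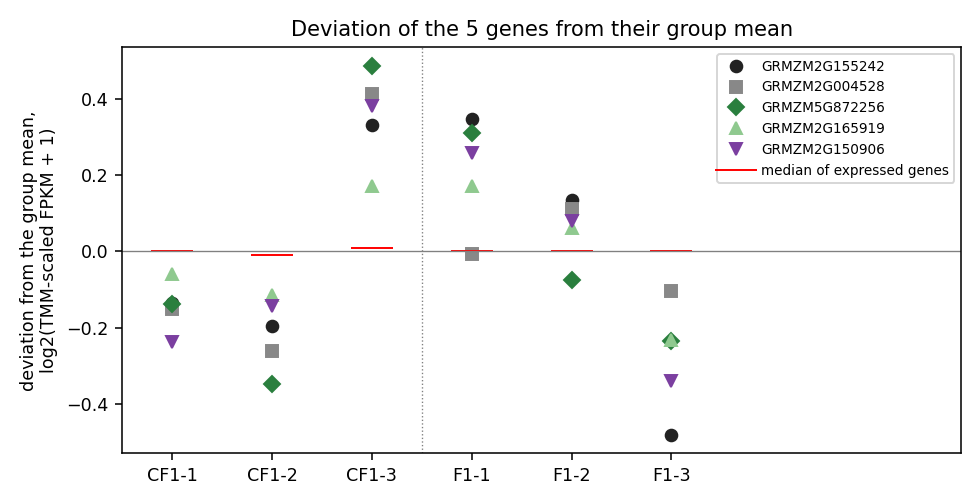
Deviation of each gene from the mean of its group, on the scale of log2(TMM-scaled FPKM + 1), by library, with the median of the expressed genes as a red bar. All 5 genes lie above 0 in CF1-3 and below 0 in CF1-1, CF1-2 and F1-3. Of all expressed genes, 48.7% (CF1-1), 52.3% (CF1-2), 47.4% (CF1-3) and 49.8% (F1-3) lie below 0.

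Over the 6 libraries, the named genes with profiles most like those of the members were sought by Pearson r among 2066 expressed genes with a RefSeq symbol. A high r is common here, because the points are 2 groups of 3 libraries: it was at least 0.9 for between 2030 and 5791 expressed genes, depending on the member. For GRMZM2G004528 the nearest were a dehydrin gene (dhn2, GRMZM2G373522, r = 0.9999), whose products are hydrophilic proteins of drying cells, and a D-amino acid oxidase gene (GRMZM2G025977, r = 0.9993). The dehydrin gene went from an FPKM of 3.96 ± 1.97 to 82.7 ± 10.4 (SD, n = 3). For GRMZM2G155242 they were rmr7 (GRMZM2G054225, r = 0.9974) and TRAF39 (GRMZM2G163671, r = 0.9973), and for GRMZM5G872256 HAK10 (GRMZM2G443728, r = 0.9929), of a family of potassium transporters, and hda101 (GRMZM2G172883, r = 0.9895), which encodes a histone deacetylase. For GRMZM2G165919 they were CBL1 (GRMZM2G107575, r = 0.9986), of a family of calcium sensors, and Ligatin (GRMZM2G128189, r = 0.9961), and for GRMZM2G150906 CNX5 (GRMZM2G157836, r = 0.9992) and again Ligatin (r = 0.9979). A high r does not mean a change of like size. The log2 fold changes were 3.59 for the dehydrin gene, 2.25 for rmr7, 2.00 for the oxidase gene, and 1.23 each for TRAF39 and CBL1. Those of HAK10 (0.65), Ligatin (0.63), CNX5 (0.63) and hda101 (0.39) stayed under the 2-fold threshold. Among the members themselves r lay between 0.926 (GRMZM2G155242 and GRMZM5G872256) and 0.997 (GRMZM2G165919 and GRMZM2G150906).

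Other genes of the pathway were taken by RefSeq symbol: 5 gene IDs of alkaline alpha-galactosidases (AGA1, AGA2, AGA3b and a pair of IDs under AGA3a), which cleave galactose from raffinose-type sugars, a phosphatidylinositol synthase (PIS), and the phytate kinases ITPK1 and ipp2K. All 8 were expressed. Of them 2 were up-regulated and 4 down-regulated, and 2 were not called, where 24.1% of all expressed genes were up- and 19.9% down-regulated. Their median log2 fold change was -1.46, against 1.98 for the members and 0.05 for all expressed genes. It was -0.74 with the genes of phytate metabolism that were added later. Pathway genes without such a symbol are absent from the list, and AGA3a enters it by both IDs. The median therefore describes these 8 IDs and not the rest of the pathway.

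The alkaline alpha-galactosidase gene AGA1 (GRMZM2G340656) had a larger fold change than any of the 5 members. Its FPKM was 15.68, 16.88 and 13.12 in CF1 and 1816, 2660 and 2492 in F1. It rose by 6.46 on the log2 scale (standard error 0.22, adjusted p = 2.09e-08 by edgeR, 87.8-fold), and the mean of F1 ranked 8 among all genes of the table, against 4828 in CF1. The other IDs of this group did not follow. AGA3b (GRMZM2G037265) fell from 22.3 ± 10.9 to 7.77 ± 0.514 FPKM (SD, n = 3, log2 fold change -2.31), and GRMZM2G050177, 1 of the IDs of AGA3a, from 28.2 ± 11.9 to 7.00 ± 0.0306 (SD, n = 3, log2 fold change -2.80). Both varied widely among the controls, with CF1 replicate 3 the lowest (10.87 and 15.49), yet the F1 libraries lay below it. The short second ID of AGA3a (GRMZM2G050273) had 3 to 18 counts per library and was called down-regulated as well. It was not called with library totals (adjusted p = 0.0595 by edgeR). AGA2 (GRMZM2G127147) had an FPKM of 33.5 ± 6.65 and 31.9 ± 4.27 (SD, n = 3) and was not called (log2 fold change -0.87, and -0.07 with library totals).

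On the phytate side, ipp2K (GRMZM2G067299), the kinase that makes phytate from inositol pentakisphosphate, fell from 37.3 ± 10.9 to 9.02 ± 0.445 FPKM (SD, n = 3, log2 fold change -2.85, standard error 0.21, adjusted p = 1.47e-06 by edgeR). ITPK1 (GRMZM2G456626), an earlier kinase of phytate synthesis, rose from 1.10 ± 0.459 to 8.11 ± 1.20 FPKM (SD, n = 3, log2 fold change 2.07). It lies under the level of 10 FPKM set for naming genes and is named as the other up-regulated gene of the list. PIS (GRMZM2G110646) was not called, with a log2 fold change of -0.62 that was 0.18 with library totals. A further 4 genes of phytate metabolism were added after the data were seen. Of them the phytate transporter gene MRP4 (GRMZM5G820122), which loads phytate into the vacuole, was called up-regulated (18.8 ± 2.94 to 66.6 ± 7.44 FPKM, SD, n = 3, log2 fold change 1.02, standard error 0.15). This call is at the edge of the 2-fold threshold, with an interval of 2 standard errors from 0.73 to 1.31. The myo-inositol kinase gene lpa3 (GRMZM2G361593) had a log2 fold change of 0.68 and was not called, and phytase1 and phytase2 had at most 6 counts in any library and were not tested.

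**Figure D5:**
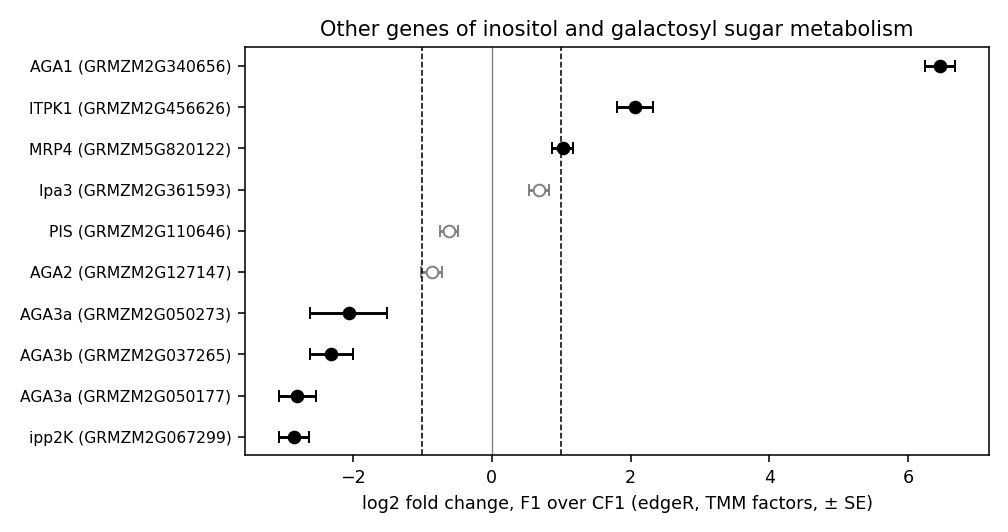
Log2 fold change (± SE, edgeR with TMM factors) of the other expressed genes of inositol and galactosyl sugar metabolism. Filled symbols passed both thresholds, the dashed lines mark 2-fold changes, and AGA1 stands apart at 6.46 while the AGA3 IDs and ipp2K lie between -2.06 and -2.85.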

How the data were processed

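Paired-end reads of poly(A) RNA were aligned by the authors to the maize B73 genome (RefGen_v3; HISAT2 2.0.1 per the processing notes) and counted per gene with HTSeq 0.6.1. The deposited counts are raw. The deposited FPKM values are counts per exonic kilobase and per 1000000 counts of the library: over genes at 10 FPKM or more, the median ratio of the deposited values to those recomputed from counts and lengths was 0.9999 to 1.000 per library. The strand setting is not given in the sources used here. The 24 per-sample columns whose names match no label were not used.

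A gene counted as expressed where CF1 or F1 averaged 1 FPKM or more. All 5 members passed. Counts were tested with edgeR 4.0.16 in R 4.3.3 (glmQLFit, glmQLFTest, TMM factors, no replicate block). The standard error is the log2 fold change divided by the square root of F. Ratios of FPKM within a library (0.01 added to both terms) were compared by exact permutation tests in SciPy 1.17.1. TMM-scaled FPKM uses the counts of each library summed over the expressed genes, multiplied by its TMM factor. The edgeR fit with library totals used the same sums without the factors. Alternatives were DESeq2 1.42.0, limma 3.58.1, other scalings, no filter, the replicate block and each library left out. The fits were tested on simulated data in which a small set of genes changed, equally many up and down. The scaling under a shift in composition like that of the real libraries was not tested there.

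Members and lists were chosen with earlier results of these data known. Named genes were every member, called pathway genes with a mean FPKM of at least 10 (up to 3 per role), and the 2 genes most like each member. The other genes of the pathway list and of the 4 added to it (ITPK1, GRMZM2G050273, AGA2, PIS, lpa3, MRP4, phytase1 and phytase2) fall outside this rule and were named after their values were seen, to account for every gene of the lists. RefSeq symbols (assembly Zm-B73-REFERENCE-NAM-5.0, names only) matched 18908 gene IDs. They come without descriptions, so the roles of the pathway list were read from symbols. Promoter motifs were not examined here. The members had between 653 and 46124 counts each, so that the spread between replicates, not counting error, limits the precision.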

Additional observations from a re-analysis of the deposited data

How the results depend on the processing

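All 5 genes rose in each of the 13 alternatives run for each. GRMZM2G155242, GRMZM2G004528 and GRMZM2G150906 were called in all 13, GRMZM5G872256 in 11 and GRMZM2G165919 in 10. With 1 library left out, the log2 fold change lay between 0.93 and 1.39 for GRMZM5G872256 and between 0.94 and 1.14 for GRMZM2G165919, and 3 to 5 of the 5 genes were called, because their values fall on either side of the 2-fold threshold. No shared deviation was seen between same-numbered libraries of the groups (r = 0.032, -0.017 and 0.016 over genes). Differently numbered ones gave -0.040 to 0.014. A shared handling with a small effect would not be seen in this way, so whether the numbers mark pairs is not known. With the replicate block the log2 fold changes were 4.68, 2.23, 1.13, 1.03 and 1.99 in the order MIPS, GolS, RAFS, and all 5 were called. Library totals raised every member by about the shift of the median of all genes, to 5.50, 3.01, 1.91, 1.84 and 2.79. Over all genes they turned 4963 up- and 4102 down-regulated genes into 9286 and 1899. DESeq2's Wald test gave 4.68, 2.19, 1.09, 1.02 and 1.97. Of the 4 within-library ratios, 3 kept their direction in all 10 alternatives, between 2.27 and 2.63 (MIPS pair), 0.84 and 0.96 (RAFS over GolS) and -2.50 and -2.36 (GolS over MIPS). The ratio of the GolS pair lay between -0.01 and 0.26. The 8 genes of the pathway list gave 2 up-regulated genes in every alternative and 3 or 4 down-regulated ones. The list of 12, with 4 genes added after seeing the data, gave 3 and 4. With 3 libraries per group no permutation test can pass 0.05, and changes near 2-fold cannot be placed on either side of the threshold.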

Other observations

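Within each library, the level of AGA1, whose product cleaves raffinose-type sugars, can be set against that of the raffinose synthase gene. The pair was chosen after the values were seen and was not tested. The FPKM of AGA1 was 0.604, 0.607 and 0.341 times that of GRMZM2G150906 in the CF1 libraries, and 7.22, 11.9 and 15.3 times in the F1 libraries. Control leaves therefore held more transcript of the synthase than of this galactosidase, and heat-treated leaves the reverse. The summed FPKM of the 5 alkaline alpha-galactosidase IDs was 66.6 to 128.6 in CF1 and 1867 to 2709 in F1. It was above that of GRMZM2G150906 (25.97 to 38.49 in CF1, 162.7 to 251.5 in F1) in every library. The reversal thus holds for AGA1 and not for that sum. AGA1 made up 15.8 ± 3.44% of that sum in CF1 and 97.9 ± 0.586% in F1 (SD, n = 3). Transcript levels do not give enzyme activity or sugar content, which were not measured here.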
